A study of Mus musculus with 8 samples.

Results

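Receptors for hormones and growth factors were examined in the distal convoluted tubule (DCT), the nephron segment that lies beyond the thick ascending limb. The list named 10 genes (Pth1r, Casr, Calcr, Gcgr, Adrb1, Agtr1a, Avpr1a, Vdr, Egfr and Esr1), of which 9 could be measured, out of 18782 genes with a probe set that carries exactly 1 gene symbol. Each of the 9 had 1 such probe set. Adrb1 had none in the platform annotation used and was not analysed here.

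The data were 8 microarrays of mouse kidney tubules, 4 from TBC1D4-deficient and 4 from TBC1D4 wild-type mice. TBC1D4 is a Rab GTPase-activating protein of insulin-regulated vesicle traffic. All mice were males of strain C57/Bl6 aged 8 weeks. Animals of both genotypes also carried the PV-EGFP transgene, in which the parvalbumin promoter drives green fluorescent protein, and the glowing tubules were picked out by COPAS, a sorter for large objects. The fluorescence marks parvalbumin-positive tubules, so a late DCT without parvalbumin would be missed, and a tubule fragment can carry adjoining segments. Each array's description carries its own number and identifier, both of unstated meaning. Nothing in the labels says that an array is a separate animal, and the spread behind each p-value may therefore be technical.

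Values are intensities on the log2 scale, where 1 unit is a doubling. Tbc1d4 averaged 2.48 ± 0.21 (SD, n = 4) in TBC1D4-deficient arrays and 6.75 ± 0.15 (SD, n = 4) in wild-type arrays, and its values did not overlap. Slc12a3, the sodium chloride cotransporter that defines the DCT, lay between 11.45 and 11.56 on all arrays, and Pvalb (parvalbumin) between 9.57 and 9.85. All 10 measured DCT markers exceeded background as defined below. So did all 19 proximal tubule markers, 9 of 10 thick ascending limb markers, 7 of 8 of the connecting tubule and principal cells, all 12 of intercalated cells and all 13 of endothelium. For podocytes the count was 4 of 7, for mesangial, smooth muscle and renin cells 5 of 9, and for fibroblasts and leukocytes 3 of 10 and 3 of 11. By the same rule 59.8% of all 18782 genes exceeded background.

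The DCT reclaims sodium chloride, calcium and magnesium under hormonal control. Parathyroid hormone and active vitamin D raise calcium transport there, glucagon and calcitonin act through cyclic AMP in the distal nephron, and epidermal growth factor, which the DCT itself makes, supports magnesium uptake. Pth1r, Calcr and Gcgr encode receptors of one family of G protein-coupled receptors for peptide hormones. Casr encodes the receptor that senses extracellular calcium, Agtr1a and Avpr1a the receptors of the pressor peptides angiotensin II and vasopressin, Egfr a receptor tyrosine kinase, and Vdr and Esr1 nuclear receptors for vitamin D and oestrogen.

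The DNA just upstream of the listed transcription starts is shown for 4 receptors on which the results below turn: the brightest pair (Vdr and Casr), the one whose genotypes did not overlap (Gcgr) and the other with an unadjusted p below 0.05 between genotypes (Avpr1a). Sequences are the last 100 bases before the start in RefSeq on GRCm38.p6, in the direction of transcription, and capitals mark a GC box (GGGCGG or its complement). Promoter sequence of 8 of the 9 receptors was found; Agtr1a was not matched.
Vdr, chr15:97908297-97908396, minus strand: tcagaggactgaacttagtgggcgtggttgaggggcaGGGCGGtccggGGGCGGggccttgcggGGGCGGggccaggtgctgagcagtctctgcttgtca
Casr, chr16:36562135-36562234, minus strand: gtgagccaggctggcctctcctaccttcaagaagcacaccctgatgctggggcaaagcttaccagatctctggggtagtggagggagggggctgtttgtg
Gcgr, chr11:120530627-120530726, plus strand: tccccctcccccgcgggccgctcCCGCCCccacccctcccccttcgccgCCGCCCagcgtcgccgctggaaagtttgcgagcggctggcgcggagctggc
Avpr1a, chr10:122448399-122448498, plus strand: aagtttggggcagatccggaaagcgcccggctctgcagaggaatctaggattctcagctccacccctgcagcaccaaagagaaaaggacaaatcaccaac

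The upstream windows of the receptors had no common composition. Over the full 250 bases before the start, Vdr held 3 GC boxes and 61.2% G or C, Gcgr 2 and 70.4%, and Egfr 1 and 60.8%, while Casr (48.8%) and Avpr1a (53.6%) held none. The 3 listed starts of Pth1r, in the order of transcription, held 0, 1 and 4 GC boxes (56.0%, 65.6% and 70.4% G or C). The first start of Calcr held none (46.0%) and the second 1 (70.8%), and neither start of Esr1 held any (47.6% and 59.6%). Of all 32851 windows of that length in the table, 32.7% held a GC box on either strand, and the median content of G or C was 52.4%. Avpr1a alone of the 8 held a TATA box (TATAAA, either strand; 12.4% of all windows). The nuclear receptor half-site AGGTCA, searched on both strands, was in none of the receptors' windows, against 14.0% of all windows. The cyclic AMP response half-site TGACG was found upstream of Avpr1a, of both listed Calcr starts and of 1 of 3 Pth1r starts (17.8% of all windows). A match describes letters and not a bound site.

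Vdr, Casr, Pth1r and Gcgr were the bright receptors of these tubules, far above background, and Calcr was close to it. Because the deposited values hold no detection call, background was taken from 1003 probe sets for olfactory receptors, a family of odorant receptors. These probe sets were assumed to be mostly without transcript in these tubules, which was not tested. Their median was 1.55 to 1.66 and their 95th percentile 2.46 to 2.61 on the 8 arrays. A receptor was called above background where it exceeded that percentile on every array. This held for 8 of the 9 receptors, against 59.8% of all 18782 genes by their brightest probe set and 2.39% of the olfactory probe sets themselves. With the 99th percentile the count was again 8 of 9 (51.1% of all genes), and 6 of 9 exceeded the brightest olfactory probe set on every array (37.3% of all genes). The choice of background family moved the count. Against the 95th percentile of 176 vomeronasal receptor probe sets (2.12 to 2.41) all 9 were above it on every array, Calcr included (65.5% of all genes). Against that of 46 keratin-associated protein probe sets (4.7 to 5.02) the count was 5 of 9 (34.7% of all genes). Agtr1a, Esr1 and Calcr were then above the percentile on 0 of 8 arrays and Avpr1a on 5 of 8.

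**Figure D1:**
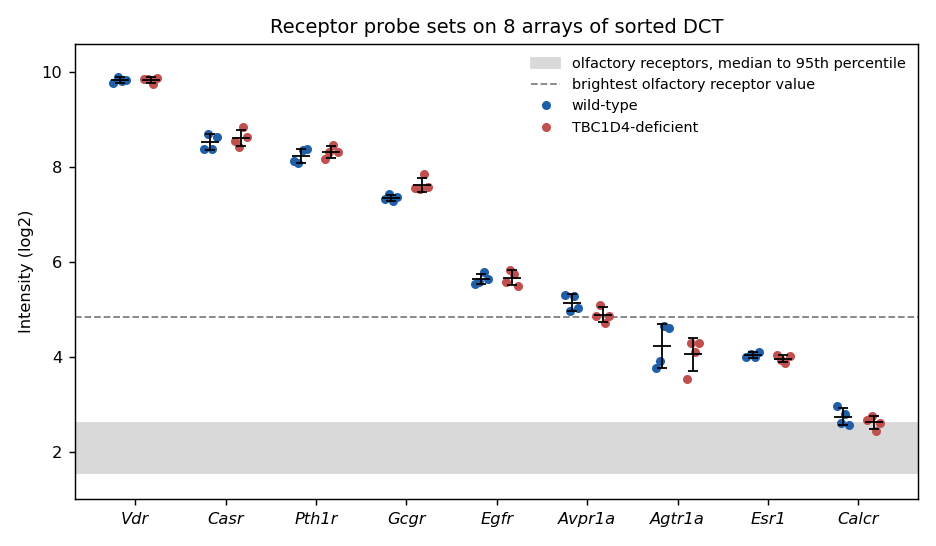
Intensity (log2) of the 9 receptor probe sets, ordered by their mean, with 1 point per array (4 wild-type, 4 TBC1D4-deficient), group means as ticks and bars of 1 SD. The grey band spans the olfactory receptor probe sets from median to 95th percentile and the dashed line is the highest olfactory value on any array; Calcr touches the band, and Vdr lies 7.14 to 7.38 above the 95th percentile.

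Of the receptors that serve calcium balance, Vdr averaged 9.84 ± 0.05 (SD, n = 8) with values from 9.75 to 9.91. Its brightness exceeded that of 99.3% of all genes. Casr averaged 8.57 ± 0.17 (SD, n = 8; 8.38 to 8.84) and Pth1r 8.28 ± 0.13 (SD, n = 8; 8.09 to 8.46). Both lay at least 5.50 above the olfactory 95th percentile of their array. Calcr read 2.66, 2.75, 2.43 and 2.61 in TBC1D4-deficient replicates 1 to 4 and 2.96, 2.60, 2.80 and 2.57 in wild-type replicates 1 to 4. It was above the 95th percentile on 7 of 8 arrays, by 0.36 at most, and 0.18 below it in TBC1D4-deficient replicate 3. On no array did it reach the 99th percentile, and 31 olfactory probe sets had a higher mean.

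Gcgr, the glucagon receptor, averaged 7.49 ± 0.18 (SD, n = 8; 7.28 to 7.85), brighter than 91.8% of all genes. Egfr averaged 5.65 ± 0.13 (SD, n = 8; 5.49 to 5.84), at least 2.93 above the olfactory 95th percentile. Avpr1a averaged 5.01 ± 0.21 (SD, n = 8), and these 3 were brighter than every olfactory probe set on each array. Agtr1a averaged 4.14 ± 0.39 (SD, n = 8) and Esr1 4.0 ± 0.07 (SD, n = 8; 3.87 to 4.11). Esr1 was dimmer than the brightest olfactory probe set on all 8 arrays, and Agtr1a on 6 of them.

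Probe sets differ in how strongly they bind their target, so the order of brightness is not an order of transcript number. In that order most neighbours were separated on all 8 arrays with ranges that did not overlap. The ranges of Casr and Pth1r overlapped, although Casr was the brighter on each array, by a mean of 0.29. Agtr1a and Esr1 could not be ordered: their mean gap was 0.14, and Agtr1a was the brighter on 5 of 8 arrays.

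The study compared the genotypes to look for changes that compensate for a missing TBC1D4. None of the 9 receptors passed limma's test after Benjamini-Hochberg adjustment over 23039 probe sets (adjusted p = 0.9999 for each), where 0.00434% of all probe sets passed, a single one, that of Tbc1d4. At an unadjusted p below 0.05 there were 2 of 9 receptors, Gcgr and Avpr1a, against 2.9% of all probe sets. The difference was above 0 for 4 and below 0 for 5 receptors, with a median of -0.000441 beside -0.000742 over all genes. For 8 of 9 the 95% confidence interval lay inside a 1.5-fold change, as it did for 97.4% of all probe sets. Agtr1a was the exception.

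Gcgr was the one receptor whose genotypes did not overlap. It read 7.56, 7.53, 7.85 and 7.59 in TBC1D4-deficient replicates 1 to 4 and 7.32, 7.43, 7.28 and 7.38 in wild-type replicates 1 to 4. Every TBC1D4-deficient array was thus above every wild-type array, an order met by 0.942% of all probe sets (no overlap in either direction: 1.85%). Of the 9 receptors, 1 showed no overlap. The difference was 0.28 (95% interval 0.10 to 0.46; SE 0.08), a 1.21-fold higher level (1.07 to 1.37), with an unadjusted limma p of 0.00594 and an adjusted p of 0.9999. TBC1D4-deficient replicate 3 was the highest of the 8. The sample descriptions carry numbers of unstated meaning, and the arrays numbered 5 to 8 and 9 to 12 hold 2 of each genotype apiece. Within these sets the difference was 0.363 and 0.192. Several marker lists of other cells lay wholly below 0 in the genotype comparison. All 13 endothelial markers were lower in the genotype difference (median -0.269), 8 of them at an unadjusted p below 0.05 and none after adjustment. Their level, as a mean of log2 values, ran from 3.37 to 3.75 in TBC1D4-deficient and from 3.78 to 3.96 in wild-type arrays, without overlap. All 19 proximal tubule markers (median -0.274) and all 8 of the connecting tubule and principal cells (median -0.193) were lower as well. Both lists had levels that overlapped between genotypes. An unadjusted limma p below 0.05 was met by 0 of the former and 2 of the latter, and none passed after adjustment. The other lists held both signs. Of the intercalated cell markers 10 of 12 were lower (median -0.156), and of the leukocyte markers 9 of 11 were higher (median 0.071). The Gcgr difference was 0.15 with the connecting tubule and principal cell marker mean as a covariate and 0.341 with the endothelial one, fits added after the data were seen. In bulk tubules, fewer cells of a type and less RNA per cell cannot be told apart.

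Avpr1a had the opposite sign. It read 4.85, 5.10, 4.72 and 4.87 in TBC1D4-deficient replicates 1 to 4 and 5.31, 4.96, 5.28 and 5.02 in wild-type replicates 1 to 4. The groups overlapped through TBC1D4-deficient replicate 2, which lay above wild-type replicates 2 and 4. The difference was -0.26 (95% interval -0.49 to -0.03; SE 0.10), with an unadjusted limma p of 0.0319 and an adjusted p of 0.9999. The arrays numbered 5 to 8 gave -0.328 and those numbered 9 to 12 gave -0.19. With the intercalated cell marker mean as a covariate it was -0.135, with that of the connecting tubule and principal cells -0.0963, and with that of endothelium -0.185, all added after the data were seen. With the range of a second identifier in the descriptions, also of unstated meaning, as a covariate it was -0.129.

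For the other receptors the 95% interval of the difference included 0. Vdr averaged 9.84 ± 0.06 (SD, n = 4) in each genotype, with an interval of the difference from -0.13 to 0.13. Pth1r differed by 0.08 (95% interval -0.12 to 0.27). With the endothelial marker mean as a covariate, in a fit added after the data were seen, it differed by 0.3 (limma adjusted p = 0.9997). Casr differed by 0.10 (-0.14 to 0.33) and Egfr by 0.03 (-0.17 to 0.23). Esr1 differed by -0.07 (-0.21 to 0.07) and Calcr by -0.12 (-0.35 to 0.10). Agtr1a differed by -0.18 with the widest interval, -0.69 to 0.33.

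**Figure D2:**
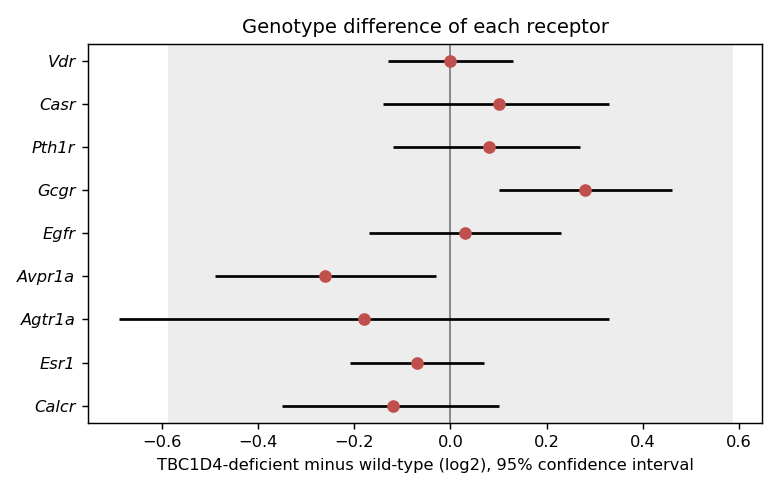
Difference of each receptor between TBC1D4-deficient and wild-type arrays (log2, 4 against 4 arrays), with bars for the 95% confidence interval of the limma fit and grey shading for changes under 1.5-fold. The bars of Gcgr (0.10 to 0.46) and Avpr1a (-0.49 to -0.03) do not reach 0, and that of Agtr1a leaves the shading.

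Agtr1a followed the proximal tubule markers from array to array. Their mean, with each gene centred over the 8 arrays, was -1.05, 0.29, 0.05 and 0.08 in TBC1D4-deficient replicates 1 to 4 and -0.48, -0.29, 0.72 and 0.68 in wild-type replicates 1 to 4. Agtr1a read 3.53, 4.28, 4.10 and 4.28 in the same TBC1D4-deficient replicates and 3.77, 3.90, 4.64 and 4.60 in the wild-type ones. The array lowest in proximal tubule markers was lowest in Agtr1a, and the array highest in one was highest in the other. Pearson's r was 0.99 and Spearman's rho 0.98 over 8 arrays (exact 2-sided permutation p = 4.96e-05 and 0.000397; adjusted over 90 relations 0.00446 and 0.0357). Without the 2 arrays farthest from the median, TBC1D4-deficient replicate 1 and wild-type replicate 3, r was 0.98. It was 0.99 with genotype means removed and 0.99 with the means of the number sets removed; each set holds 4 arrays, too few for an r of its own. Agtr1a rose by 0.65 per unit of the marker mean. With that mean as a covariate its genotype difference was 0.0265, against -0.177 without. With the endothelial marker mean, in a fit added after the data were seen, the Agtr1a difference was 0.444. The endothelial level did not overlap between genotypes, so that fit separates it poorly from genotype. The summed level of the 19 markers, as a mean of log2 values, ranged from 5.83 to 7.16 in TBC1D4-deficient and from 6.39 to 7.59 in wild-type arrays. Agtr1a also had r = 0.86 and rho 0.93 with the thick ascending limb markers (exact permutation p = 0.00288 and 0.00223, adjusted 0.0648 and 0.0502). By Pearson's r that relation passed without wild-type replicate 4 and in no other alternative. Vdr had the same rho of 0.93 with the podocyte markers, of which 4 of 7 were above background. Its r with them was 0.82 (exact permutation p = 0.0121 for r and 0.00223 for rho, adjusted 0.131 and 0.0502).

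**Figure D3:**
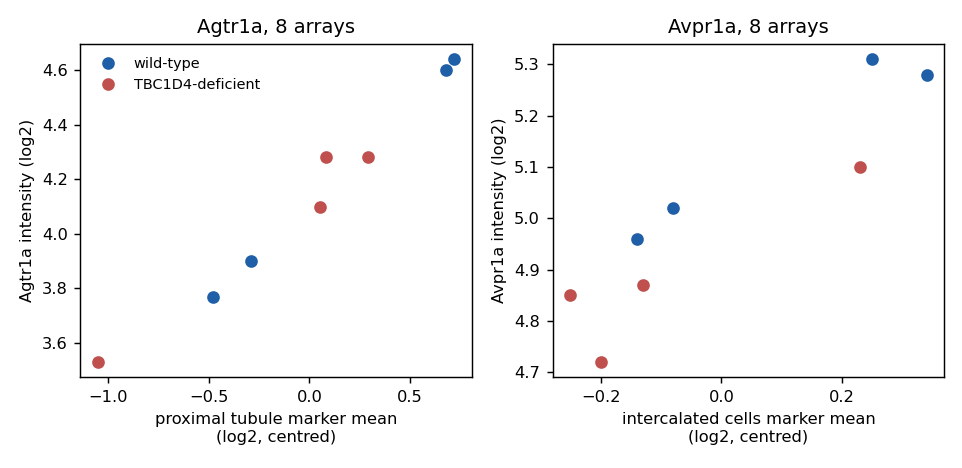
Each point is 1 array (wild-type or TBC1D4-deficient). On the left, Agtr1a intensity (log2) against the mean of 19 proximal tubule markers (log2, centred over the 8 arrays), r = 0.99; on the right, Avpr1a against the mean of 12 intercalated cell markers, r = 0.91.

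The 3 genes most like Agtr1a across the arrays, among 11233 genes above background, were Slc16a12 (r = 0.997), Slc22a2, an organic cation transporter of the proximal tubule (r = 0.994), and Cldn2, the claudin of its leaky tight junctions (r = 0.994). Pth1r, which the proximal tubule also expresses, had r = 0.71 with the proximal tubule markers (permutation p = 0.0494; rho 0.64, p = 0.0962; adjusted p = 0.404 and 0.618). Its slope was 0.15 per unit of the marker mean. Its nearest genes were Sema6a (r = 0.939), Habp4 (0.937) and Micos13 (0.935).

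Avpr1a had its highest correlation with the markers of intercalated cells, the acid-base cells of the connecting tubule and collecting duct, and the relation missed the threshold after adjustment. Pearson's r was 0.91 and rho 0.93 over 8 arrays (exact permutation p = 0.00129 and 0.00223; adjusted over 90 relations 0.058 and 0.0502), and r was 0.79 without wild-type replicates 1 and 3. TBC1D4-deficient replicates 1 to 4 had marker means of -0.25, 0.23, -0.20 and -0.13, and wild-type replicates 1 to 4 of 0.25, -0.14, 0.34 and -0.08. Like Avpr1a, the marker mean was split without overlap by the identifier range. It ran from -0.25 to -0.13 in the lower range and from -0.08 to 0.34 in the higher. The relation with the means of these ranges removed was not tested. The adjusted p passed with the number set means removed and without TBC1D4-deficient replicate 1, and ranged from 0.0112 to 0.161 over 11 alternatives. Its 3 most similar genes were Slc16a11 (r = 0.968), Atp6v0d2, a proton pump subunit that is itself on the intercalated cell list (r = 0.961), and Epb41l2 (r = 0.952). With the connecting tubule and principal cell markers Avpr1a had r = 0.86 (permutation p = 0.00471; rho 0.81, p = 0.0218; adjusted p = 0.0848 and 0.279).

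Gcgr and Casr had negative correlations with the markers of the connecting tubule and principal cells. For Gcgr r was -0.90 and rho -0.79 (exact permutation p = 0.00288 and 0.0279; adjusted 0.0648 and 0.279), and for Casr -0.85 and -0.79 (p = 0.00632 and 0.0279; adjusted 0.0948 and 0.279). Neither passed, and without TBC1D4-deficient replicate 3 and wild-type replicate 3 r was -0.60 for both. The marker mean was -0.34 in TBC1D4-deficient replicate 3, the array highest in Gcgr and Casr, and 0.29 in wild-type replicate 3. Its level ranged from 5.17 to 5.52 in TBC1D4-deficient and from 5.43 to 5.80 in wild-type arrays. With the endothelial markers Gcgr had r = -0.52 and rho -0.81 (exact permutation p = 0.19 and 0.0218; adjusted 0.855 and 0.279), and r was 0.27 with genotype means removed.

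**Figure D4:**
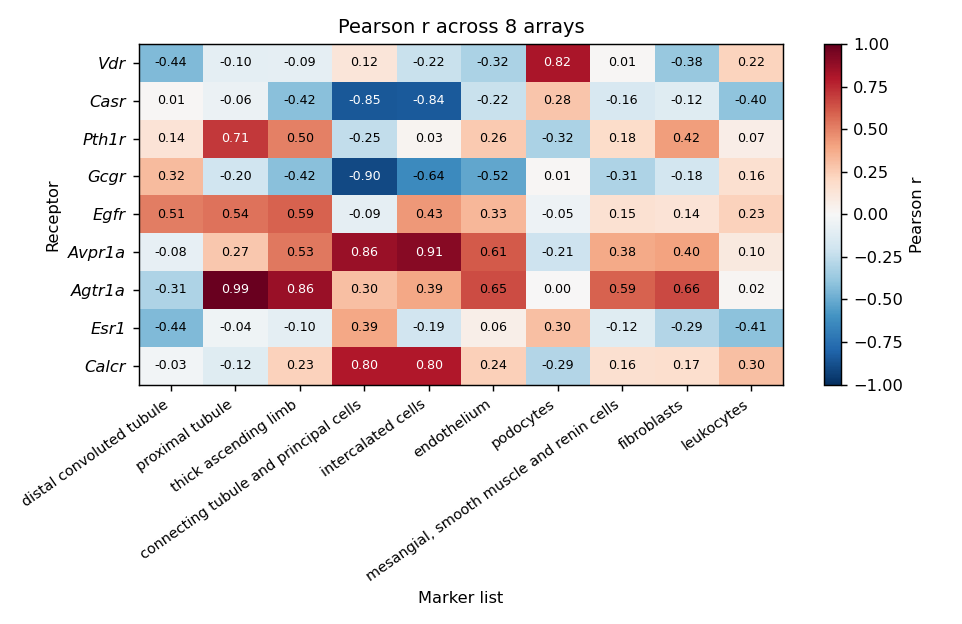
Pearson's r across the 8 arrays between each of the 9 receptors (rows) and the mean of each of 10 marker lists (columns), coloured from -1 (blue) to 1 (red). Agtr1a with the proximal tubule (0.99) is the one cell of 90 that passed after adjustment.

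Among 36 pairs of receptors, 4 passed after adjustment by Pearson's r. Casr and Calcr ran opposite to each other (r = -0.94, rho -0.93; exact permutation p = 0.000273 and 0.00223; adjusted 0.00983 and 0.0803), and r was -0.95 without the 2 arrays farthest from the median of Casr. Calcr lay near background on these arrays. Avpr1a ran with Calcr (r = 0.90, rho 0.76; permutation p = 0.00243 and 0.0368; adjusted 0.0342 and 0.331). It ran against Gcgr (r = -0.87, rho -0.88; permutation p = 0.00285 and 0.00724; adjusted 0.0342 and 0.13). It also ran against Casr (r = -0.88, rho -0.83; permutation p = 0.00503 and 0.0154; adjusted 0.0453 and 0.185). None of the 4 passed by rho after adjustment. The count of pairs that passed was 0 without TBC1D4-deficient replicate 3 or 4 or wild-type replicate 2 or 3. Leaving out TBC1D4-deficient replicate 2 left 2, and leaving out wild-type replicate 1 left 1. With single arrays left out, r ran from -0.97 to -0.90 for Casr with Calcr and from 0.84 to 0.94 for Avpr1a with Calcr. For Gcgr with Avpr1a it ran from -0.90 to -0.83, and for Casr with Avpr1a from -0.95 to -0.82. With the intercalated cell markers Calcr had r = 0.80 and Casr -0.84 (exact permutation p = 0.0131 and 0.0123, both adjusted 0.131). With the connecting tubule and principal cell markers Calcr had r = 0.80 (exact permutation p = 0.0227, adjusted 0.204). The part of these markers in the pairs was not tested.

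The remaining receptors had close companions of other kinds. Casr was most like Lrrc14b (r = 0.992), Pigr, the receptor that carries immunoglobulins across epithelia (0.973), and Dctn1, a dynactin subunit (0.957). Gcgr was most like Rplp2, a ribosomal protein (0.987), Abt1 (0.965) and Zfp607b (0.951). Vdr was most like Fnta, a subunit of farnesyltransferase (0.978), Trp53inp2 (0.964) and Sf3a3, a splicing factor (0.953). Egfr was most like Chd3, a chromatin remodeller (0.974), 3110021A11Rik (0.96) and Nradd (0.956). Esr1 was most like Mettl4 (0.948), Rhog, a small GTPase (0.945), and Tmem168 (0.944). These are the highest of 11233 correlations over 8 arrays and describe these arrays.

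Genes around the receptors were measured in 9 lists with 175 different genes, and none passed the limma test between genotypes (6 of 175 had an unadjusted p below 0.05, against 2.9% of all probe sets). Among relatives of the receptors, 15 of 30 were above background, against 59.8% of all genes. Of the 30, 11 lay above and 19 below 0 in the genotype difference (median -0.0263). Kl (klotho), the co-receptor of a phosphate-regulating hormone, was the brightest at 10.57, followed by Fgfr1, a fibroblast growth factor receptor, at 7.50. Their differences were -0.04 (95% interval -0.16 to 0.09) and 0.13 (-0.02 to 0.29). Calcrl, the calcitonin receptor-like receptor of vessels, stood at -0.24 (-0.47 to -0.01), beside endothelial markers that were lower for 13 of 13 (Emcn, a sialomucin of capillaries and veins, at -0.46 and Pecam1, a junction protein, at -0.35, both picked after their values were seen). The part of these markers in the Calcrl value was not tested. Adcyap1r1 stood at -0.13 (-0.27 to 0.01). Erbb2, Erbb3 and Erbb4, which pair with Egfr and were picked after their values were seen, averaged 6.76, 6.73 and 7.23 and differed by 0.01, -0.02 and 0.11. Avpr1b, Agtr2, Pth2r and Esr2, picked likewise, were above the olfactory 95th percentile on 0 of 8 arrays.

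Ligands and the enzymes that process them were above background for 13 of 20, against 59.8% of all genes. Of the 20, 9 lay above and 11 below 0 in the genotype difference (median -0.00252). Egf, the ligand of Egfr, was the brightest at 10.91 with a difference of 0.02 (95% interval -0.14 to 0.17), and Enpep, a peptidase that cleaves angiotensin II, followed at 7.11 (-0.01, -0.18 to 0.17). Hbegf, another ligand of Egfr, stood at -0.36 (-0.65 to -0.07; unadjusted p = 0.021) and Agt, the angiotensin precursor, at -0.41 (-0.88 to 0.07). Neither passed (limma adjusted p = 0.9999). Hbegf averaged 4.43 ± 0.15 in TBC1D4-deficient and 4.79 ± 0.28 in wild-type arrays (SD, n = 4 each).

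Downstream of the receptors, partners and regulators were above background for 18 of 23, against 59.8% of all genes. Of the 23, 11 lay above and 12 below 0 in the genotype difference (median -0.000803). Erbin, a binding partner of Erbb2, and Arrb1, an arrestin that silences G protein-coupled receptors, were the brightest at 8.70 and 8.21, with differences of -0.01 (-0.16 to 0.15) and -0.0008 (-0.15 to 0.15). Rgs5, a G protein regulator of pericytes, stood at -0.22 (-0.40 to -0.04) and Ramp2, a partner of calcitonin-family receptors, at 0.14 (-0.07 to 0.34). Of 17 G protein subunits 13 were above background (5 above, 12 below 0; median -0.0114). Gnb1 averaged 9.60 and Gnas, the stimulatory subunit used by the parathyroid hormone and glucagon receptors, 8.21, with differences of -0.01 (-0.16 to 0.14) and -0.04 (-0.16 to 0.08). Gnaz stood at -0.22 (-0.51 to 0.08) and Gnai1 at -0.12 (-0.29 to 0.04). Of 17 genes of phospholipase C, IP3 receptors and protein kinase C, 13 were above background (8 above, 9 below 0; median -0.0202). Itpr2 averaged 7.68 and Prkcd 7.21, Plcb2 stood at -0.17 (-0.33 to -0.0041) and Plcg1 at 0.16 (-0.07 to 0.40).

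All 21 genes from the EGF receptor to the MAP kinases were above background, against 59.8% of all genes. Of the 21, 10 lay above and 11 below 0 in the genotype difference (median -0.00103). The kinases Map2k1 and Map2k2 averaged 8.15 and 7.27. Spry2, a feedback inhibitor of this pathway, stood at 0.28 (95% interval 0.08 to 0.47) and the adaptor Gab1 at 0.14 (-0.02 to 0.31). The limma p of Spry2 was 0.0114 unadjusted and 0.9999 adjusted. Of 19 partners and targets of Vdr, 16 were above background (9 above, 10 below 0; median -0.0119). Its targets Calb1 and S100g, both calcium-binding proteins, averaged 11.09 and 10.69 and differed by -0.05 (-0.17 to 0.07) and -0.05 (-0.21 to 0.11). Snw1, a coactivator, stood at 0.12 (-0.03 to 0.26) and Rxrg, within the olfactory range, at -0.15 (-0.35 to 0.04). Of 15 oestrogen receptor partners and targets, 10 were above background (6 above, 9 below 0; median -0.0247), with Ccnd1 at 9.26 (difference 0.13, -0.01 to 0.26), Xbp1 at 8.93 (-0.09, -0.32 to 0.13) and H2-Ke6 (Hsd17b8), a steroid dehydrogenase, at 0.18 (0.01 to 0.36). Of 17 genes responsive to cyclic AMP, 16 were above background (10 above, 7 below 0; median 0.0065). Ppargc1a averaged 9.44 and Dusp1 8.64, and Creb1 and Crem stood at 0.13 (-0.03 to 0.29) and -0.14 (-0.34 to 0.05).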

How the data were processed

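Linear intensities of 28371 probe sets were deposited by the authors, 1 column per array. They came from Affymetrix Power Tools, per the submitters' processing notes, with the version, summarisation and normalization not given in the sources used here. Array medians of 8.41 to 9.03 show a common scale, which would hide a change shared by most genes. Labelled cDNA came from 100 ng of RNA, per the labels' protocols. Intensities were log2-transformed with no pseudocount. Genes were named by probe sets of 1 symbol (21158), the brightest per gene. The genotype test was that of limma 3.58.1 (R 4.3.3, lmFit then eBayes, without covariates and 2-sided) on 23039 probe sets with a symbol, called at a Benjamini-Hochberg adjusted p below 0.05. Relations across arrays used exact 2-sided permutation over all 40320 pairings (Python 3.11.15, scipy 1.17.1). The scripts were tested on simulated data. Members, lists and tests were chosen with earlier results of these data known. Genes named were the receptors, Tbc1d4, Slc12a3 and Pvalb, the 2 brightest and the 2 of smallest p per pathway list, and the 3 most correlated with each receptor above background; others are marked. For marker lists the rule also named the 2 brightest genes, and these are given here only as counts. For arrays, their number (4 per group) limits the precision. Alternatives covered background sets, filters, normalization, covariates, blocks and leaving out arrays.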

Additional observations from a re-analysis of the deposited data

Results flagged for a closer look

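Vdr in TBC1D4-deficient replicate 3 read 9.75, apart from the other TBC1D4-deficient arrays at 9.87 to 9.88. The gap was 0.92 of the group's range, above Dixon's 95% critical value for 4 samples. It was the single such value among 18 groups of 4 arrays examined, where chance alone marks about 1 in 20. Wild-type arrays ran from 9.78 to 9.91.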

How the results depend on the processing

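No receptor passed the limma test between genotypes in any of 24 alternatives (0 of 9 in each, and 0 to 2 at an unadjusted p below 0.05; smallest adjusted p = 0.9972). Of the 175 pathway genes 0 passed in the 10 alternatives run for them. Gcgr stayed higher (0.15 to 0.363) and Avpr1a lower (-0.331 to -0.0963) in TBC1D4-deficient arrays in all 24, and Esr1 stayed lower. The sign turned for Vdr in 7, Casr in 4, Egfr and Agtr1a in 3 each and Pth1r and Calcr in 1 each. With the identifier range, which is unbalanced between the genotypes, as a covariate it turned for Casr (-0.0286) and Agtr1a (0.00938). Whether the replicate numbers of the titles pair the arrays is not stated. Correlations of same-numbered arrays, after removing each genotype's mean, were 0.48, -0.22, 0.02 and 0.06. With 4 arrays per group these values cannot decide it. With the replicate block 0 receptors passed and 1 had an unadjusted p below 0.05. The count above background was 5 with keratin-associated proteins as background, 9 with vomeronasal receptors and 8 to 9 when single arrays were left out. Receptor and marker relations that passed numbered 2 with the number set means removed and 1 to 3 when single arrays were left out. Dropping TBC1D4-deficient replicate 1 gave 3 and dropping wild-type replicate 4 gave 2; Agtr1a with the proximal tubule passed in all 11 alternatives. Pairs of receptors that passed numbered 1 with quantile normalization, 1 with the number set means removed and 0 to 4 when single arrays were left out, and the cause was not tested. Casr with Calcr passed in 7 of 11. Receptors had no second probe set to compare. Low signal over background limits Calcr, Esr1 and Agtr1a, whose differences can be understated.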
